A study of Mus musculus with 2 samples.

Results

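The 38 genes described here encode proteins of the lysosome: membrane proteins, lumenal enzymes and cofactors, the transcription factor Tfeb, and subunits of the vacuolar proton pump. They were taken by symbol from the gene rows of both matrices, and all 38 were found among 31055 genes. None was used to sort cells into classes. They were handled as 8 membrane proteins, 13 hydrolases and lumenal proteins, 1 regulator, 6 subunits of the V0 part of the pump, 8 of its V1 part and 2 accessory proteins.

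The data are from 2 tumours under the skin of FVB mice, squamous cell carcinomas labelled replicate 1 and replicate 3, which form 1 group with no treatment. Each tumour arose from 2 carcinoma lines injected together, CIT6 marked with YFP and CIT9 marked with RFP. Immune cells of the sections were tagged with oligonucleotide codes by light, according to the region they lay in, and CD45+ cells were sorted from the digested sections for droplet 3′ sequencing (10x 3′ v3). Normal skin, blood and tumours of either line alone were not analysed here, and the labels do not say that the tumours came from separate animals. With tumour as a block, p-values measure only how unevenly differences between groups of cells repeat in these samples, a spread that may be technical. It is estimated over all groups of a fit together.

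The lysosome is the acidic compartment in which cells break down material taken up by phagocytosis, endocytosis and autophagy. Its acidity is made by the vacuolar proton ATPase, in which the cytosolic V1 part splits ATP and the V0 part in the membrane carries protons, and several subunits exist in isoforms used by different cells. Macrophages are rich in lysosomes, and osteoclasts, the bone-resorbing cells of the same lineage, place the pump in their outer membrane and secrete lysosomal enzymes, among them the tartrate-resistant phosphatase Acp5.

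The deposited matrices held 89040909 gene UMIs (unique molecular identifiers, each counting 1 captured RNA molecule) in replicate 1 and 170328781 in replicate 3. After filters on UMIs, genes, mitochondrial share and doublet score, 4598 and 6363 cells remained, with median depths of 16417.5 and 20723.0 gene UMIs. Only 9 cell barcodes occurred in both libraries. Cells were gated on mean log2 scores of marker genes outside the members into 2780 and 3046 macrophage-like cells (markers including C1qa, C1qb, C1qc, Adgre1 and Csf1r), 259 and 1245 C1q-low phagocytes, 146 and 451 monocyte-like cells, 441 and 40 neutrophil-like cells, 79 and 102 conventional dendritic cell (DC)-like cells, 443 and 847 T-like cells and 96 and 195 natural killer (NK)-like cells. The C1q-low phagocytes are a range of the macrophage score below the macrophage gate, not a cell type, and 160 and 239 cells lay within 0.25 score units of that gate. Osteoclast-like cells, 22 in replicate 1 and 52 in replicate 3, carried at least 3 of Mmp9, Ctsk, Ocstamp, Dcstamp and Nfatc1. In a CD45+ sort, 26 and 38 cells passed a collagen gate, and Ptprc, the gene of CD45, stood there at 17.4 and 4.32 CPM against 347 and 282 CPM in macrophage-like cells. Throughout, a level is given as CPM, the UMIs of a gene summed over the cells of 1 class in 1 tumour and scaled to the same total of gene UMIs (10 to the power of 6), with replicate 1 first and replicate 3 second, and a pair of values without other words has that order.

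The members took the largest share of gene UMIs in osteoclast-like cells, at 3.76 and 2.90%. Macrophage-like cells followed with 1.47 and 1.22%, then plasmacytoid DC-like cells with 1.094 and 1.249%, C1q-low phagocytes with 1.16 and 0.894% and monocyte-like cells with 0.998 and 1.04%. Neutrophil-like cells held 0.7504 and 0.7874%, conventional DC-like cells 0.629 and 0.689%, T-like cells 0.372 and 0.329% and NK-like cells 0.312 and 0.289%. The osteoclast-like share exceeded that of each of the other classes in both tumours, whereas the plasmacytoid DC share of replicate 3 lay above the macrophage share of the same tumour. Much of the osteoclast-like share was Acp5 alone, at 1.747 and 1.195% of gene UMIs, and the other 37 members made up 2.01 and 1.70% there against 1.44 and 1.20% in macrophage-like cells. Per cell, osteoclast-like cells carried 1143 and 1315 member UMIs on average and macrophage-like cells 293 and 331. In barcodes of 10 to 100 UMIs, taken as a sample of RNA free in the suspension, the members made up 0.955 and 0.937%.

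**Figure D1:**
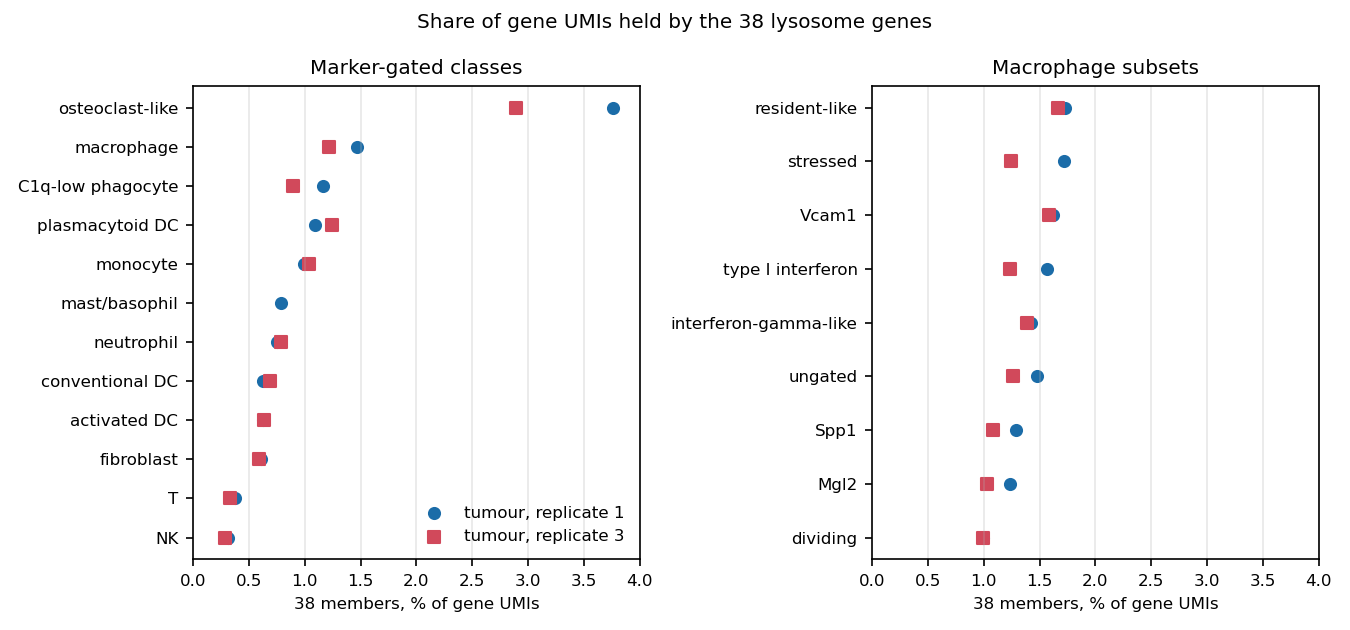
Share of gene UMIs held by the 38 members (x axis, percent) in 12 marker-gated classes (left; B-like cells are not drawn) and 9 macrophage subsets (right), with a circle for replicate 1 and a square for replicate 3. The osteoclast-like class stands apart at 3.76 and 2.90%, and T-like and NK-like cells are the lowest of those drawn.

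Members differed in the class where they were highest. Over the 9 classes that reached 20 cells both in replicate 1 and in replicate 3, the mean level was highest in osteoclast-like cells for 20 members, in neutrophil-like cells for 7, in macrophage-like cells for 6, in monocyte-like cells for 3, and in fibroblast-like cells and C1q-low phagocytes for 1 each. Among these 9 classes, all 8 V1 subunits, 4 of 6 V0 subunits and both accessory proteins were highest in osteoclast-like cells, while Lamp1, Mcoln1, Grn, Psap, Acp2 and Man2b1 were highest in macrophage-like cells. The members highest in neutrophil-like cells were Lamp2, Scarb2, Gla, Lipa, Neu1, Tfeb and Atp6v0a1. Laptm5, Npc1 and Atp6v0d1 led in monocyte-like cells, Cd63 in fibroblast-like cells and Gusb in C1q-low phagocytes. Lamp2, Scarb2 and Atp6v0a1 were lowest in osteoclast-like cells. With the smaller classes found in both tumours included, the mean level was highest in plasmacytoid DC-like cells for Grn, Psap, Npc1, Laptm5, Scarb2, Tfeb and Atp6v1h, and in B-like cells for Mcoln1. The B-like class held only 13 and 7 cells with 81350 and 50364 gene UMIs in all, so the rank of this low-count gene is uncertain.

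**Figure D2:**
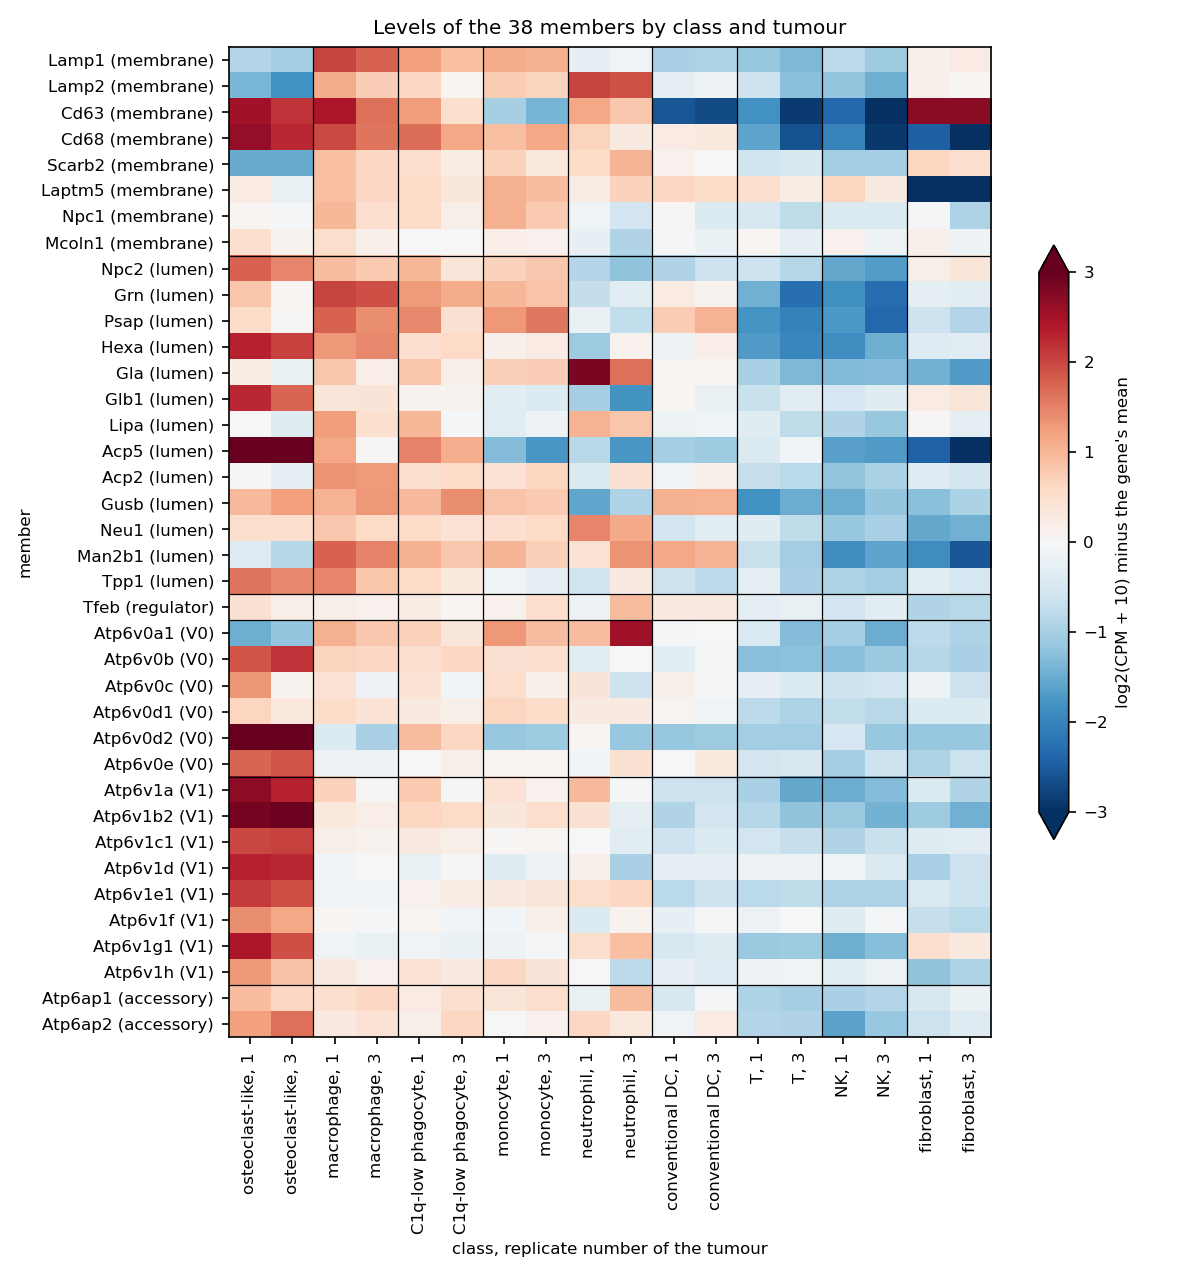
Level of each member (rows, grouped by role) in 9 classes and both tumours (columns), as log2(CPM + 10) minus the gene's mean over the 18 columns. The V1 rows are highest in the osteoclast-like columns, where Lamp2 and Scarb2 fall below their own means.

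Macrophage-like cells had higher levels of 8 lumenal genes than monocyte-like cells, and no member subunit of the proton pump was called. Of 38 members, 10 were higher and 0 lower in the edgeR quasi-likelihood test with tumour as a block (adjusted p under 0.05 over all genes, Benjamini-Hochberg; log2 fold changes are TMM-normalised), against 10.0% of all tested genes higher and 9.27% lower. These were 8 of 13 hydrolases and lumenal proteins and 2 of 8 membrane proteins, and DESeq2 called 11 higher and 1 lower. The median log2 fold change was 0.92 for the lumenal group, -0.16 for V0, -0.06 for V1 and 0.04 for all tested genes. At an unadjusted p under 0.05, 1 V0 subunit was higher and 1 V1 subunit lower, and 3830 of 11723 genes passed in either direction. The comparisons of macrophage-like cells with other classes share the macrophage sums.

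Cd63, a tetraspanin of late endosomes and lysosomes, stood at 1334 and 782 CPM in macrophage-like cells and 116 and 86.0 CPM in monocyte-like cells. The lower of the macrophage values lay above both monocyte values, and the log2 fold change was 3.35 ± 0.28 (SE), adjusted p = 2.37e-06. Acp5, an acid phosphatase, was at 301 and 132 CPM against 46.7 and 31.5 CPM, with a log2 fold change of 2.42 ± 0.34 (SE), adjusted p = 0.000196. Its groups did not overlap. Tpp1, a lysosomal peptidase, was at 193 and 121 CPM against 57.6 and 49.7 CPM (1.51 ± 0.18 (SE), adjusted p = 5.68e-05). The other members past the threshold had smaller log2 fold changes: Hexa, a subunit of β-hexosaminidase, 1.22, Lipa, the acid lipase, 1.22, Grn, the progranulin gene, 1.10, the β-galactosidase gene Glb1 1.10, the acid phosphatase gene Acp2 0.92, Lamp1 0.83 and the α-mannosidase gene Man2b1 0.79. Lamp1, a main glycoprotein of the lysosome membrane, was at 1307 and 1090.5 CPM against 684 and 662 CPM. Tfeb had a log2 fold change of -0.32 ± 0.21 (SE) with an adjusted p of 0.318, and Atp6v0d1, the widely used d subunit of V0, one of -0.12 ± 0.16 (SE) with an adjusted p of 0.646. Atp6v0d2 had 0 UMIs in monocyte-like cells of replicate 1 and 3 in those of replicate 3, and its log2 fold change was 2.79 ± 1.16 (SE), adjusted p = 0.109. The rest of the lysosome genes gave the following counts: 16 of 39 further hydrolases and activators were higher and 1 lower, led by the α-glucosidase gene Gaa (1.68), the phospholipase gene Pla2g15 (1.61) and Naglu (1.60), with Ids (-0.75) the lower one. Among 27 further membrane and transport genes 7 were higher and 2 lower, and among 10 pump isoform and assembly genes 3 and 1, the lower one being Dmxl2 (-1.501), which takes part in pump assembly.

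Against neutrophil-like cells the members split by role. Macrophage-like cells were higher for 10 members and lower for 10, with 21.1% of all tested genes higher and 19.4% lower. Of the hydrolases and lumenal proteins 9 of 13 were higher and 2 lower, whereas of the 16 V0, V1 and accessory genes none was higher and 6 were lower. The median of all genes tested stood at a log2 fold change of 0.46, and at 0.22 with DESeq2 size factors, so that a member at 0 lies below the median gene under both scalings, and the calls are relative to that shift. DESeq2 called 10 members higher and 11 lower.

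Gusb, the β-glucuronidase gene, was at 214 and 258 CPM in macrophage-like and 27.3 and 47.2 CPM in neutrophil-like cells, a log2 fold change of 2.20 ± 0.23 (SE), adjusted p = 2.35e-06. Gla, the α-galactosidase gene, went the other way, at 94.6 and 57.0 CPM against 403 and 173 CPM (-2.66 ± 0.29 (SE), adjusted p = 4.24e-06). Lamp2, the partner of Lamp1 in the membrane, was at 287 and 218 CPM against 547 and 503 CPM (-1.59 ± 0.22 (SE), adjusted p = 3.57e-05). The groups overlapped for none of these 3 genes, and Lamp1 moved opposite to Lamp2, with 264 and 283 CPM in neutrophil-like cells and a log2 fold change of 1.60. The other lumenal genes that were higher were Grn (2.13), Glb1 (1.68), Hexa (1.59), Psap (1.49), Acp2 (1.43), Npc2 (1.33), Acp5 (1.24) and Tpp1 (1.20). The sialidase gene Neu1 was lower (-1.38), as were Atp6v1g1 (-1.37), Atp6v1e1 (-1.27), Atp6v0a1 (-1.07), Atp6v1a (-0.95), Atp6v0e (-0.86), Atp6ap2 (-0.85) and Scarb2 (-0.48), and values overlapped between the groups for Atp6v0a1, Atp6v1a, Atp6ap2 and Scarb2. Cd63 (0.55, adjusted p = 0.112), Tfeb (-0.51, adjusted p = 0.261), Atp6v0d1 (-0.37, adjusted p = 0.113) and Atp6v0d2 (-2.18, adjusted p = 0.0562) did not pass. Replicate 3 held only 40 neutrophil-like cells with 127128 gene UMIs, and in that tumour alone Atp6v1a and Atp6ap2 had log2 values of 0.02 and 0.05, opposite in sign to the fit. With free RNA subtracted at an assumed 10%, 6 members were lower, as were 6 without the tumour block.

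Conventional DC-like cells were below macrophage-like cells for more than the lumenal genes. Of 38 members 21 were higher in macrophage-like cells and 0 lower, against 10.0% and 11.3% of all tested genes, and DESeq2 called 21 and 1. The 21 comprised 6 of 8 membrane proteins, 8 of 13 lumenal proteins, 2 of 6 V0 subunits, 4 of 8 V1 subunits and 1 of 2 accessory proteins. The widest gap was at Cd63, with 32.8 and 29.0 CPM in DC-like cells and a log2 fold change of 4.89 ± 0.31 (SE), adjusted p = 8.81e-08. Lamp1 was at 155 and 159 CPM there (2.78 ± 0.19 (SE), adjusted p = 1.18e-07), and neither gene's groups overlapped. The next were Tpp1 (1.99), Grn (1.72), Npc2, the lumenal cholesterol carrier (1.48), Acp2 (1.46), Hexa (1.26) and Neu1 (1.22). Psap, whose product is cut into activators of sphingolipid breakdown, was at 1355 and 1648 CPM in DC-like cells (0.51), and Gusb at 220.1 and 214 CPM (-0.03), and neither passed the test. The same holds for Tfeb (-0.31, adjusted p = 0.394), Atp6v0d1 (0.39, adjusted p = 0.0992) and Atp6v0d2 (0 and 1 UMIs in DC-like cells, adjusted p = 0.155). Without the tumour block 12 members were higher.

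Almost all members were lower in T-like cells than in macrophage-like cells. The test called 33 of 38 higher in macrophage-like cells and 0 lower, DESeq2 called 32 and 0, and 26.2% of all tested genes were higher and 25.5% lower. All 13 lumenal genes passed, as did 7 of 8 membrane, 5 of 6 V0, 5 of 8 V1 and both accessory genes. In T-like cells Lamp1 stood at 136 and 116 CPM (3.33 ± 0.19 (SE), adjusted p = 2.69e-09), Grn at 73.1 and 37.1 CPM (4.18 ± 0.25 (SE), adjusted p = 3.57e-09) and Cd63 at 61.2 and 24.4 CPM (4.79 ± 0.30 (SE), adjusted p = 5.4e-09). No member's T-like and macrophage-like values overlapped among these 3. Log2 fold changes of the others with the smallest p were 3.63 for Hexa, 3.31 for Gusb, 3.18 for Acp2, 2.70 for Man2b1 and 2.07 for Atp6v0b. Atp6v0d1 (1.57) and Tfeb (0.76, adjusted p = 0.00882) passed as well. The 5 that did not pass were Laptm5 (0.50), a lysosomal membrane protein of haematopoietic cells, Atp6v1d (0.22), Atp6v1f (0.18), Atp6v1h (0.46) and Atp6v0d2 (2.20, adjusted p = 0.0622). The complement genes C1qa, C1qb and C1qc, which macrophages make, reached 4.41 and 4.94% of their free RNA level in T-like cells. Cd63 stood there at 0.0797 and 0.0380 times its own free RNA level and Laptm5 at 0.985 and 1.09 times, so the Cd63 of T-like cells in replicate 3 is no higher than that carry-over and is read as background.

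**Figure D3:**
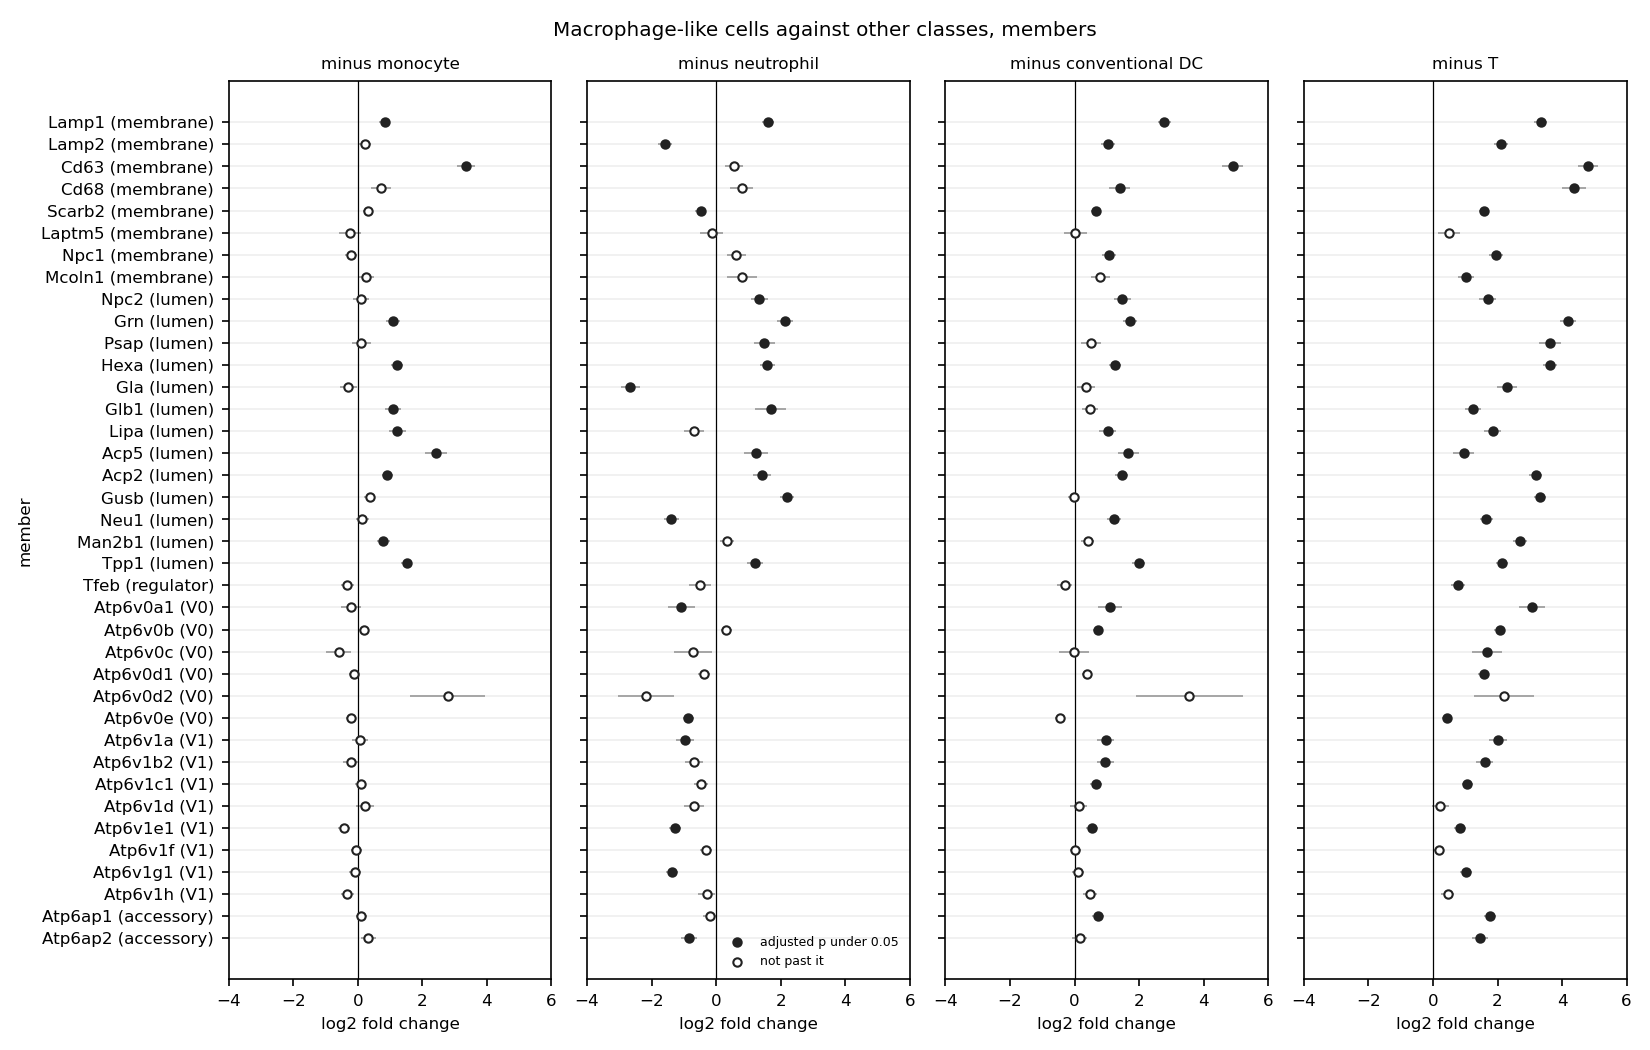
Log2 fold change with its standard error (x axis) of each member (rows) in macrophage-like cells against 4 other classes, from the edgeR fit over both tumours. Filled points passed an adjusted p of 0.05, and against monocyte-like cells no V0 or V1 row is filled, with Atp6v0d2 at 2.79, while most lie right of 0 against T-like cells.

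Between the lymphocyte classes edgeR called members no more often than tested genes in general. Of 38, 0 were higher in NK-like than in T-like cells and 2 (5.26%) were lower, with 4.58% and 6.28% of all tested genes. DESeq2 called 0 and 3 members, and 685 and 755 of 11723 genes. At an unadjusted p under 0.05, 2 members were higher and 4 lower, and 2752 of 11723 genes passed in either direction. Acp5 was at 35.0 and 32.7 CPM in NK-like and 92.0 and 122 CPM in T-like cells (-1.63 ± 0.35 (SE), adjusted p = 0.00638). Man2b1 was at 38.9 and 49.1 against 102 and 76.1 CPM (-0.88 ± 0.23 (SE), adjusted p = 0.0193). The NK-like values of both genes lay below the T-like values. Among T-like cells, those with Foxp3, Il2ra and Ctla4 carried Acp5 at 117 and 142 CPM, those with Cd8a and Cd8b1 at 75.5 and 113 CPM and the others at 69.1 and 116 CPM. For Man2b1 the Foxp3 cells were at 129.7 and 122 CPM and the CD8 cells at 52.5 and 52.5 CPM, and for Npc2 the Foxp3 cells were at 508 and 608 CPM and the CD8 cells at 299 and 323 CPM. The Foxp3 values were above the CD8 values of both tumours for each of these 3 genes, which were picked after their values were seen. T-like Acp5 stood at 0.285 and 0.400 times its free RNA level, above the C1q share. Lamp1 (0.43), Cd63 (-0.46), Tfeb (-0.28) and Atp6v0d1 (0.16) did not pass, with adjusted p-values from 0.174 to 0.673, and without the tumour block neither Acp5 nor Man2b1 passed. Atp6v0d2 had 7 and 0 UMIs in NK-like cells.

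Phagocytes with a macrophage score below the gate had lower levels of some lysosome genes and more Atp6v0d2, a comparison added after the data had been seen. Of 38 members 7 were higher in macrophage-like cells and 1 lower, with 2.93% and 2.43% of all tested genes. Those higher were Cd63 (1.23), Acp2 (1.01), Lamp1 (0.88), Hexa (0.88), Grn (0.85), Tpp1 (0.81) and Man2b1 (0.75). Atp6v0d2 was at 32.6 and 23.7 CPM in C1q-low phagocytes and 6.65 and 1.19 CPM in macrophage-like cells (-3.12 ± 0.45 (SE), adjusted p = 0.00164). Its UMIs came from few cells: 38 and 98 cells carried 1 or more, and the highest 5 and 25 cells held 48.6 and 72.9% of them. Without the tumour block no member passed in either direction, and of 11723 genes only 5 were higher and 5 lower. With free RNA subtracted at an assumed 10%, 1 was higher and 0 lower, while DESeq2 called 11 higher. Tfeb (0.09) and Atp6v0d1 (0.32) had adjusted p-values of 0.86 and 0.262.

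Osteoclast-like cells differed from other phagocytes in most members. Against macrophage-like cells that passed no subset gate, 19 of 38 members were higher and 12 lower, with 20.8% and 21.5% of all tested genes. Against C1q-low phagocytes, which like the osteoclast-like cells hold little C1q (added after the data had been seen), 22 were higher and 10 lower, with 15.6% and 18.8% of all tested genes. All 8 V1 subunits were higher in both comparisons, with log2 fold changes from 1.01 to 2.81 in the first and from 0.89 to 2.57 in the second. The membrane proteins went mostly down, 5 of 8 lower and 1 higher in the first comparison. Median log2 fold changes in the first comparison were 2.26 for V1, 1.34 for V0, -0.17 for the lumenal group, -0.78 for the membrane group and -0.06 for all tested genes.

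Acp5 reached 17470.1 and 11955 CPM in osteoclast-like cells, against 305 and 141 CPM in ungated macrophages and 377 and 283 CPM in C1q-low phagocytes. The log2 fold change was 6.17 ± 0.32 (SE), adjusted p = 1.08e-10, against the ungated macrophages and 5.56 ± 0.32 (SE), adjusted p = 5.76e-10, against C1q-low phagocytes. Every osteoclast-like cell of replicate 3 and 21 of 22 of replicate 1 carried its UMIs. So did 86.3 and 78.3% of macrophage-like cells and 69.9 and 57.8% of C1q-low phagocytes. In level, Acp5 was far above both references, with no overlap between groups. Atp6v0d2, the d2 isoform of V0 known from osteoclasts, was at 1184 and 985 CPM against 7.69 and 1.22 CPM in ungated macrophages (8.31 ± 0.48 (SE), adjusted p = 6.08e-10). UMIs of Atp6v0d2 were found in 95.5 and 100.0% of osteoclast-like cells (exact 95% intervals from 77.2 to 99.9% and from 93.2 to 100%, counting error only). In T-like cells, taken as cells that should lack it, the share was 0.452 and 0.472%, at median depths of 4157 and 6264 UMIs against 29670.0 and 41918 in osteoclast-like cells. Its widely used counterpart Atp6v0d1 had 166 and 129.6 CPM against 159 and 143 CPM (-0.01 ± 0.11 (SE), adjusted p = 0.964). Against C1q-low phagocytes Atp6v0d1 was higher (0.35 ± 0.11 (SE), adjusted p = 0.0235).

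The a1 and a3 isoforms of the V0 a subunit went in opposite directions. Atp6v0a1 (a1) had 1.49 and 4.24 CPM, from 1 and 10 UMIs, against 52.3 and 48.8 CPM in ungated macrophages, and the log2 fold change was -3.66 ± 0.39 (SE), adjusted p = 4.62e-07. Tcirg1, which encodes the a3 isoform of osteoclasts and is not a member, was higher (1.68). Of the V1 subunits, Atp6v1b2, which with Atp6v1a forms the ATP-splitting ring, stood at 722 and 762 CPM against 113 and 106 CPM (2.81 ± 0.13 (SE), adjusted p = 3.87e-11). The other V1 log2 fold changes against ungated macrophages were 2.47 for Atp6v1d, 2.43 for Atp6v1g1, 2.30 for Atp6v1a, 2.21 for Atp6v1e1, 2.12 for Atp6v1c1, 1.31 for Atp6v1f and 1.01 for Atp6v1h. In V0, Atp6v0e was higher by 2.07 and Atp6v0b, part of the proton-carrying ring, by 1.41. Atp6v0c, the main ring subunit, was called higher (1.28) from 28.4 and 6.35 CPM, with groups that overlapped. RefSeq lists 2 pseudogene copies of it and 1 of Cd63, which could share reads with these genes, so both genes' levels are uncertain to that extent. Atp6ap2 was higher by 1.22, and Atp6ap1 had 0.22 (adjusted p = 0.283). Against C1q-low phagocytes both were higher, by 1.17 and 0.50 (adjusted p = 0.0204 for Atp6ap1).

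Among the membrane proteins Lamp1 was at 166 and 149 CPM in osteoclast-like cells against 1311 and 1157 CPM in ungated macrophages (-2.92 ± 0.15 (SE), adjusted p = 6.88e-11). Lamp2 was at 43.4 and 28.8 against 282 and 224 CPM (-2.82 ± 0.16 (SE), adjusted p = 2.92e-10). Scarb2, the receptor that carries glucocerebrosidase to the lysosome, was at 13.5 and 13.6 against 115 and 96.1 CPM (-2.86 ± 0.17 (SE), adjusted p = 4.92e-10). All 3 were lower in both tumours with no overlap, and all 3 were lower against C1q-low phagocytes too (-1.99, -2.16 and -2.32). Cd68, a macrophage glycoprotein of the lysosome membrane, was higher (0.68), Laptm5 lower (-0.72) and the cholesterol exporter Npc1 lower (-0.84). Cd63 differed from C1q-low phagocytes (1.61 ± 0.23 (SE), adjusted p = 2.79e-05) but had 0.26 ± 0.23 (SE), adjusted p = 0.382, against ungated macrophages. Mcoln1, a cation channel of the lysosome, did not pass in either comparison.

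The lumenal genes split. Glb1 (1.91), Hexa (0.83), Npc2 (0.79) and Tpp1 (0.41) were higher beside Acp5, and Man2b1 (-2.35), Acp2 (-1.99), Grn (-1.56), Psap (-1.24), Lipa (-1.13) and Gla (-0.49) were lower. Man2b1 stood at 126 and 88.1 CPM against 591 and 506 CPM, whereas Glb1 stood at 154 and 105 CPM against 32.5 and 35.6 CPM. Gusb and Neu1 did not pass in either comparison. Tfeb, the transcription factor that activates many lysosome genes, was at 25.4 and 19.1 CPM against 20 and 18.61 CPM (0.17 ± 0.24 (SE), adjusted p = 0.597). Of its relatives, Mitf was higher (2.45) and Tfe3 lower (-0.98).

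Other lysosome genes were divided as well. Of 38 further hydrolases and activators, 4 were higher and 16 lower against ungated macrophages, and 10 and 9 against C1q-low phagocytes. Ctsk, a hydrolase of the same list, is a marker of the osteoclast-like gate. Like all gate markers it was not tested in any comparison, so these counts leave it out. The values that follow are against ungated macrophages. Smpd1, the acid sphingomyelinase gene (1.72), and Manba (1.17) were among the higher, and Lyz2, the macrophage lysozyme (-4.70), Ctsc (-3.32) and Ctsh (-3.04) led the lower. Of 28 membrane and transport genes 4 were higher and 15 lower, and 5 and 7 against C1q-low phagocytes. The higher ones included Clcn7 (1.28), the chloride transporter that serves acidification in osteoclasts, with Abca2 (1.46) and Tmem192 (1.18). The lower ones were led by Slc11a1 (-3.47), a metal transporter of phagosomes, Mfsd1 (-1.31) and Abcd4 (-4.46). Of 28 regulators and sorting genes 7 were higher and 5 lower (6 and 2 against C1q-low phagocytes), with Gnptab (2.85), which makes the mannose 6-phosphate tag of lysosomal enzymes, and Igf2r (3.11), a receptor for that tag, among the higher, and Flcn (-1.38) and Rragc (-0.77) among the lower. Of 10 pump isoform and assembly genes 3 were higher, with Tcirg1 first, and 2 lower, Dmxl2 (-2.30) and Rogdi (-1.17), with 2 and 1 against C1q-low phagocytes. The osteoclast-like cells had C1q at 10.6 and 2.95% of the free RNA level and the deepest libraries of the phagocyte classes, with median depths of 29670.0 and 41918 UMIs against 19034 and 24255 in macrophage-like cells. Their median mitochondrial share was 6.02 and 5.20% against 4.92 and 3.90% in ungated macrophages and 3.82 and 3.56% in C1q-low phagocytes, and a limit of 5% would leave 6 and 22 osteoclast-like cells. The part of depth and mitochondrial share in these results was not tested.

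**Figure D4:**
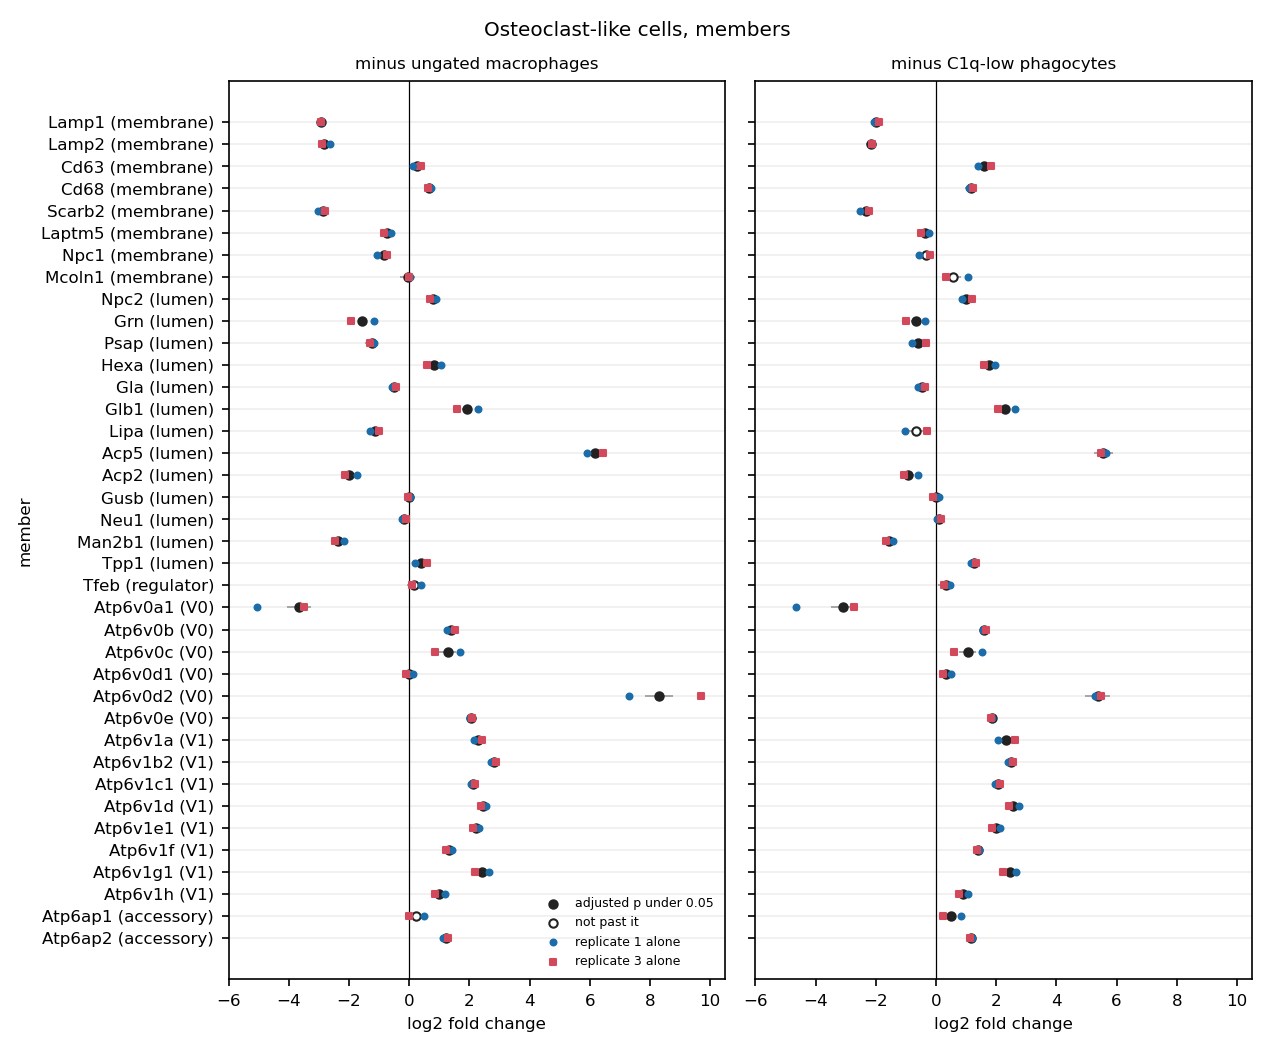
Log2 fold change of each member (rows) in osteoclast-like cells against ungated macrophages (left) and C1q-low phagocytes (right). Black points with standard errors are the fit over both tumours, filled where the adjusted p is under 0.05, and blue circles and red squares are replicate 1 and replicate 3 alone, which lie on the same side of 0 for all 8 V1 subunits.

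Promoter sequences are shown for members that carry the core of the motif bound by Tfeb and its relatives, since members with it moved in both directions in osteoclast-like cells. RefSeq promoter windows (GRCm38.p6, 250 bases before to 50 after the start) were matched for 32 of 38 members. Searched on both strands, the palindrome TCACGTGA was in 5 of these 32 (15.6%) and in 1.13% of 27025 genes. The shorter TCACGTG, which includes every match of the first, was in 8 members (25%) and 4.29% of genes, and CACGTG, which includes both, in 8 members and 8.09% of genes. A match is a run of letters and not a measured binding site. The stretches below are written 5′ to 3′ on the gene's strand, with 1 match in capitals and any other in lower case. For Lamp1 the capitals mark the match as it reads on the opposite strand.
Gla, chrX:134601163-134601230, - strand: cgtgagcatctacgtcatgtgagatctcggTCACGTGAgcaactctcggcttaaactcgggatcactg
Mcoln1, chr8:3500443-3500510, + strand: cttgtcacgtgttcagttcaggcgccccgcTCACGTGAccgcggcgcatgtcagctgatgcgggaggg
Atp6v1a, chr16:44139354-44139421, - strand: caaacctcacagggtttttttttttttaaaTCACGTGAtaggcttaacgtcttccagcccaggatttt
Lamp1, chr8:13159103-13159160, + strand: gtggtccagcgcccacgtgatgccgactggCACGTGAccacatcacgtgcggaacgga
Glb1, chr9:114400999-114401065, + strand: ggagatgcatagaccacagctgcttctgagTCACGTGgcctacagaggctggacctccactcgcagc
Atp6v0b, chr4:117887330-117887396, - strand: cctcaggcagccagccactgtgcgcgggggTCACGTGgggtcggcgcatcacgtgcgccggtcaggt
Atp6v0d1, chr8:105566056-105566073, - strand: tgcggTCACGTGAgacgc
Atp6v0e, chr17:26676393-26676410, + strand: gccgaTCACGTGAgcctc
The windows of Atp6v0d1 and Atp6v0e are kept short because their matches lie at the transcription start or after it. Of the 8 members with TCACGTG, 5 were higher in osteoclast-like cells than in C1q-low phagocytes, 2 lower (Lamp1 and Gla) and 1 not called (Mcoln1). Of the 24 matched members without it, 12 were higher, 8 lower and 4 not called. These counts leave out Npc1, Atp6v0d2, Atp6v1b2, Atp6v1c1, Atp6v1g1 and Atp6v1h, which had no matched window. All of them but Npc1 were higher in that comparison. Lamp1, with 4 matches of TCACGTG over both strands, was thus among the genes that fell and Atp6v1a among those that rose.

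Within the macrophage gate, each subset was compared with the 1328 and 1977 macrophage-like cells that passed no subset gate, so these comparisons share their reference. Cells of a stress gate (Hmox1, Fbxo32, Mt2; 149 and 4 cells) were too few in replicate 3 to test. The resident-like subset (Folr2, Fcna, Cbr2, Lyve1, Cd163; 82 and 30 cells) had 7 members higher and 0 lower, with 3.04% and 2.84% of all tested genes. Grn stood at 1712 and 1609 CPM against 921 and 906 CPM in the reference (0.77 ± 0.14 (SE), adjusted p = 0.00185), and Tpp1 at 292 and 239 against 194 and 129 CPM (0.65 ± 0.13 (SE), adjusted p = 0.00597). Both resident-like values were above both reference values for each gene. Cd68 (0.64), Atp6v1a (0.66), Lamp2 (0.58), Hexa (0.55) and Lamp1 (0.53) were the others. Lamp1 was at 1948 and 1839 CPM, the highest value of any class or subset in both tumours. Cd63 (0.34), Tfeb (-0.43) and Atp6v0d1 (0.22) did not pass, and Atp6v0d2 had no UMI. Of the further hydrolases 7 were higher and 2 lower, with Ctsd (1.54) first among the higher and Plbd1 (-1.91) among the lower. Without the tumour block no member passed, with free RNA subtracted 2 did, and with a mitochondrial limit of 5% 4 did. Without the block only 15 of 11038 genes were higher and 18 lower. The median mitochondrial share was 5.55 and 4.39% in this subset and 4.92 and 3.90% in the reference, and its part in the result was not tested.

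Mgl2 macrophages (Mgl2, Asgr2, Clec10a) went the opposite way, with 0 members higher and 6 lower, against 2.55% and 1.74% of all tested genes. Grn was at 578 and 485 CPM against 921 and 906 CPM (-0.75 ± 0.14 (SE), adjusted p = 0.00406), with no overlap. The others were Cd63 (-0.87, with overlapping values), Tpp1 (-0.59), Acp2 (-0.53), Lamp1 (-0.49) and Scarb2 (-0.42), while Tfeb (-0.01), Atp6v0d1 (-0.08) and Atp6v0d2 (-2.49) did not pass. Not every lysosome gene followed, since Plbd1 (1.16) and Gm2a (0.90) were higher in this subset and Ctsd (-1.30) and Lgmn (-0.99) lower. Without the tumour block none of the 6 passed, and with free RNA subtracted 2 did. Without the block only 9 of 11038 genes were higher and 2 lower.

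Dividing macrophages (Top2a, Mki67, Birc5, Cenpf, Ube2c) had 0 members higher and 18 lower, against 14.2% and 10.6% of all tested genes. Cd63 was at 502 and 415 CPM against 1373 and 887 CPM (-1.34 ± 0.23 (SE), adjusted p = 0.000307) and Lamp1 at 829 and 840.1 against 1311 and 1157 CPM (-0.63 ± 0.13 (SE), adjusted p = 0.00156). Neither gene's groups overlapped. Others with the smallest p were Acp5 (-1.22), Neu1 (-0.78), Tpp1 (-0.63), Lamp2 (-0.61), Atp6v1f (-0.54) and Atp6v0b (-0.42). Tfeb passed as well (-0.55, adjusted p = 0.04995), and Atp6v0d1 (-0.25) and Atp6v0d2 (-1.44) did not pass. CPM values are shares of a total that was larger here. Dividing cells held 32273 and 38732 gene UMIs per cell against 18904 and 25634 in the reference. Summed over all members, they held 319 and 383 member UMIs per cell against 279 and 323. These sums do not give the level per cell of a single member, and the part of depth in the lower values was not tested. Without the tumour block 3 members were lower.

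The other subsets had few members called or none. Where edgeR called 0 members, it called at most 1.06% of all tested genes in either direction, so 0 does not set the members apart. Type I interferon macrophages (Rsad2, Ifit1, Ifit2, Ifit3) had 3 members higher and 0 lower, against 3.45% and 0.226% of all tested genes. These were Npc2 (2469 and 1676 CPM against 1402 and 1294 CPM, 0.69 ± 0.17 (SE), adjusted p = 0.0277), Gla (0.63 ± 0.16 (SE), adjusted p = 0.0371) and Atp6v1b2 (0.59 ± 0.14 (SE), adjusted p = 0.0248), and without the tumour block none passed. Only Gla had overlapping values among these 3. Interferon-gamma-like macrophages (Cxcl9, Gbp2b, Il18bp, Gbp4) had 0 members called in either direction by edgeR and by DESeq2, against 1.06% and 0.0544% of all tested genes, with 1 higher and 0 lower at an unadjusted p under 0.05. Spp1 macrophages also had 0 and 0 by both tools, against 0.236% and 0.0906%, with 0 and 5 at the unadjusted p. For Vcam1 macrophages the counts were 0 and 0 by both tools, against 0.317% and 0.507%, with 9 and 0 at the unadjusted p. These percentages are from edgeR. DESeq2 called 142 of 11038 genes higher and 10 lower in the interferon-gamma-like subset. It called 53 and 22 in the Spp1 subset and 70 and 202 in the Vcam1 subset. At the unadjusted p of edgeR, 923, 1127 and 1702 of 11038 genes passed in the same order of subsets, in either direction. Lamp1 in the Vcam1 subset was at 1538 and 1731 CPM against 1311 and 1157 CPM, with a log2 fold change of 0.45 ± 0.13 (SE), adjusted p = 0.101. For Lamp1, Cd63, Tfeb and Atp6v0d1, the log2 fold changes were -0.10, -0.17, 0.29 and -0.01 in the type I interferon subset, and 0.04, 0.08, -0.0023 and -0.01 in the interferon-gamma-like subset. In the Spp1 subset they were -0.37, -0.65, -0.31 and -0.09, and in the Vcam1 subset Cd63 had 0.52, Tfeb 0.06 and Atp6v0d1 0.01. None of these passed. Atp6v0d2 in these 4 subsets stood between 0 and 19.2 CPM.

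**Figure D5:**
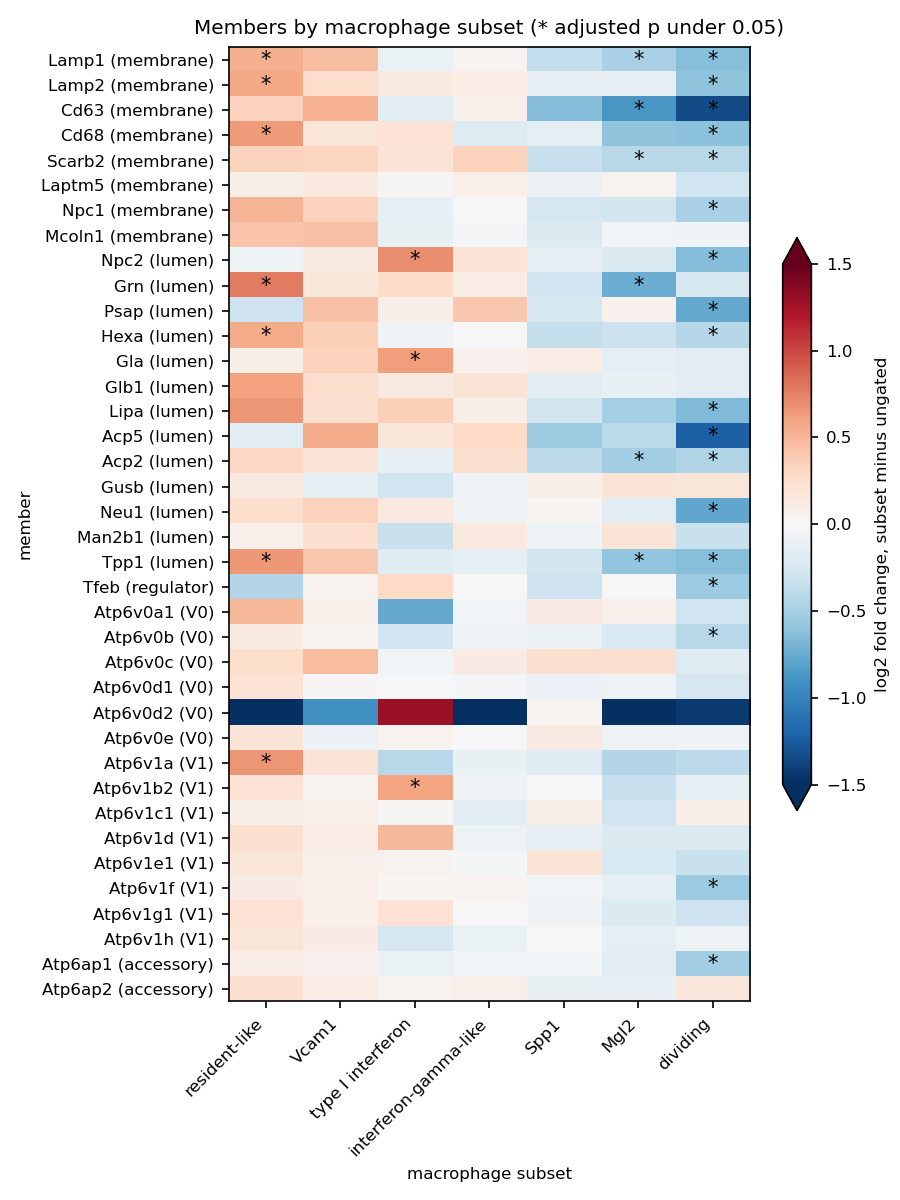
Log2 fold change of each member (rows) in 7 macrophage subsets (columns) against macrophage-like cells that passed no subset gate, with a star where the adjusted p is under 0.05. Stars of the resident-like column mark higher values, and those of the Mgl2 and dividing columns mark lower ones.

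Between the tumours, which are 1 sample each, no test was possible. In macrophage-like cells 0 members were higher in replicate 3 by 1.5-fold or more and 9 were higher in replicate 1, against 7.81% and 18.7% of all tested genes. The ratio of replicate 3 to replicate 1 was 0.437 for Acp5, 0.548 for Lipa, 0.586 for Cd63, 0.603 for Atp6v1a, 0.603 for Gla, 0.627 for Tpp1 and 0.647 for Mcoln1. The low-count genes Atp6v0c and Atp6v0d2 had ratios of 0.335 and 0.180, and Npc1, just short of the fold, 0.673. The median ratio over all 38 members was 0.871 and that of all tested genes 0.945. Gusb had the highest ratio, 1.20. What the tumours differ in besides the replicate number cannot be told apart here.

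Both tumours carried the spatial codes ZC1 and ZC5, and the labels do not say which region each code marked. Macrophage-like cells were cut into 3 equal groups by the ratio of ZC1 to ZC5 within each tumour. The median log2 ratio was -1.106 in the lowest and 0.506 in the highest group of replicate 1. In replicate 3 these medians were -2.326 and -1.07. The groups thus rank cells within a tumour and do not mark the same ratios in both. They differed mainly in ZC1 in replicate 1 and mainly in ZC5 in replicate 3. Another code, ZC2 in replicate 1 and ZC6 in replicate 3, was not used in the cut. Of 38 members 0 were higher and 0 lower in the highest group against the lowest, and 0 genes of 12512 were called by edgeR in all (0.0% higher and 0.0% lower). At an unadjusted p under 0.05, 422 of 12512 genes passed, and DESeq2 called 2 genes, with 81 at an unadjusted p under 0.05. Both unadjusted counts are below a share of 0.05 of the tested genes, so they show no excess over what that threshold lets pass. The members' share of gene UMIs was 1.412 and 1.2496% in the highest group and 1.52 and 1.17% in the lowest, so it was lower in the highest group of replicate 1 and higher in that of replicate 3. Lamp1 had a log2 fold change of -0.02 ± 0.08 (SE), Cd63 -0.03 ± 0.10 (SE), Tfeb -0.08 ± 0.09 (SE), Atp6v0d1 0.01 ± 0.05 (SE) and Atp6v0d2 0.07 ± 0.36 (SE). The fit had 2 residual degrees of freedom.

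Small classes left out of the tests had their own levels. Plasmacytoid DC-like cells (11 and 152 cells) had Grn at 1486 and 1840.3 CPM, Psap at 3283 and 4259 CPM and Npc1 at 377 and 226 CPM, each above the macrophage-like values of 919.7 and 861, 2766 and 2116 and 66.0 and 44.4 CPM. Atp6v1h, a regulatory V1 subunit, was at 392 and 333 CPM there, above its osteoclast-like 167 and 122 CPM, whereas Cd63 was at 0 and 13.3 CPM and Lamp1 at 96.1 and 177 CPM. Activated DC-like cells (15 and 17 cells) had Cd63 at 1105 and 1001 CPM against 32.8 and 29.0 CPM in conventional DC-like cells, and Cd68 at 37.3 and 46.1 against 199 and 206 CPM. Mast or basophil-like cells, 21 cells of replicate 1, had Cd63 at 3622 CPM, the highest of any class. Fibroblast-like cells had Cd63 at 1633 and 1623 CPM and Laptm5 at 49.1 and 6.24 CPM. These genes were picked after their values were seen, and no test was run on them.

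Members were not all alike in their pattern over the 18 sums of 9 classes and 2 tumours. The Pearson correlation of a member's scaled log2(CPM + 10) with the mean of the other members was highest for Cd68 (0.957), Atp6v0b (0.945) and Atp6v0d1 (0.927), and lowest for Scarb2 (0.0698), Lamp2 (0.243) and Laptm5 (0.308). Outside the members and the gate markers, the genes closest to the members' mean were Mfsd12 (0.956), Clec4a2 (0.947), Aldh3b1 (0.944), Trem2 (0.939), Dok3 (0.929), Hnmt (0.929), Sap30 (0.928), Gpr137b (0.920), Sphk2 (0.917) and Pdxk (0.913). The sums come from 2 libraries and differ in depth, so these values describe the sums and carry no test.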

How the data were processed

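The deposited files hold raw counts of UMIs per gene and cell barcode, made by the authors with Cell Ranger 4.0 on mm10, per the submitters' processing notes. Both tumours were used, and the spatial codes come from the same deposited count matrices. Cells needed 1000 gene UMIs, 500 genes and at most 10% mitochondrial UMIs. Scrublet called no doublets by its own threshold, so the highest doublet scores were removed at 0.8% per 1000 cells. Cells were gated on mean log2 marker scores whose limits were set after their distributions were seen, and cells passing several class gates were left out.

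UMIs were summed per tumour and class and tested with edgeR 4.0.16 (quasi-likelihood, TMM, R 4.3.3) with tumour as a block, since the classes compared come from the same tumour. P-values were adjusted over all genes by Benjamini-Hochberg, and classes needed 20 cells in each tumour. DESeq2 1.42.0 was an alternative. The code was tested on simulated data. Intervals are exact Clopper-Pearson and cover counting error only. The members and lists were chosen with earlier results of these data known. Named in each comparison are the 8 called members with the smallest adjusted p in each direction, and Lamp1, Cd63, Tfeb, Atp6v0d1 and Atp6v0d2. Of the other lists, those named come from the 3 smallest in each direction, and further members complete a group and were picked after their values were seen. Values of some genes of these lists are not reported here.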

Additional observations from a re-analysis of the deposited data

How the results depend on the processing

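Of 837 values of called members over the alternatives with a test, 762 kept their direction and stayed past the threshold and 75 kept the direction only. Of 224 log2 values with 1 tumour left out, which have no test, 2 reversed, both against neutrophil-like cells, and the others kept their direction. The value of Atp6ap2 ranged from -1.21 (without replicate 3) to 0.0541 (without replicate 1), and that of Atp6v1a from -1.14 to 0.0233. Without the replicate block, the members called were 6 lower against neutrophil-like cells, 12 higher against conventional DC-like cells, 0 lower in NK-like against T-like cells, 0 higher and 0 lower against C1q-low phagocytes, 0 higher in the resident-like and type I interferon subsets, 0 lower in the Mgl2 subset and 3 lower in the dividing subset. With free RNA subtracted at 10%, they were 6 lower against neutrophil-like cells, 1 higher in NK-like against T-like cells, 1 higher and 0 lower against C1q-low phagocytes, 2 higher in the resident-like subset and 2 lower in the Mgl2 subset. DESeq2 gave 1 lower against monocyte-like cells, 1 lower against conventional DC-like cells and 11 higher against C1q-low phagocytes. A stricter gate gave 12 higher against C1q-low phagocytes. The stricter UMI minimum gave 1 lower against conventional DC-like cells and 4 lower in NK-like cells, and a mitochondrial limit of 5% gave 4 higher in the resident-like subset. With no filter on low counts the calls were 2 lower in the resident-like, 10 lower in the Mgl2, 1 higher and 1 lower in the type I interferon, 1 lower in the interferon-gamma-like, 2 lower in the Spp1 and 2 higher in the Vcam1 subset. The number of genes called in all changed with the setting too. The stricter gate called 1007 of 11137 genes higher against C1q-low phagocytes, where the main fit called 344 of 11723. Without the block, 5 genes were higher and 5 lower there. In that setting 15 of 11038 genes were higher in the resident-like and 208 in the type I interferon subset. There 2 genes were lower in the Mgl2 and 163 in the dividing subset. The cause of these changes was not tested.

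Leaving out a tumour leaves no residual degrees of freedom, so only log2 values per tumour could be had. Some alternatives gave no value because a class fell under 20 cells in a tumour. These were osteoclast-like cells at the mitochondrial limit of 5% and at the stricter gate, and neutrophil-like cells at the stricter UMI minimum. For the same reason no subset comparison gave a value at the stricter gate, so no subset result was checked there. Leaving out the fibroblast sums, chosen after seeing the data, changed no count by over 1.5 times.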
